A study of Mus musculus with 8 samples.

Results

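Open chromatin was examined around 6 mouse genes, Tbx5, Mfng, Pik3r2, Babam2, Car2 and Aopep, in 8 ATAC-seq libraries of bone-marrow-derived macrophages. The genes were selected on measured values of these same libraries, because a peak in or near each had been found called in one genotype and absent from the other. A region here is the union of overlapping peaks of any library, and a region belongs to a gene when the summit of one of its peaks falls in the gene span extended by 50 kb on each side. By this rule 699 of the 411171 called peaks, merged into 142 of 76751 regions, belonged to the 6 genes, whose windows cover 1.48 Mb. The differences between genotypes that chose the genes are given as a description and were not tested. The genes had been collected as loci away from chromosome 3, which carries Lmna, the targeted gene. The annotation goes against this for Car2, which lies on chromosome 3 at 73.6 Mb from Lmna.

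The 4 groups had 2 libraries each, and the study asked how lipopolysaccharide (LPS, a bacterial cell wall component that activates macrophages) alters chromatin accessibility and what part Lamin-A plays. They were wild-type (WT) cells left untreated, WT cells given LPS for 6 h, Lamin-A knockout (KO) cells left untreated and KO cells given LPS for 6 h. Bone marrow cells were cultured for 7 days, then frozen in medium with 5% DMSO and thawed before the transposase was applied. Strain, sex and age of the mice, the LPS dose and the part of Lmna that was removed were not given in the sources used here, nor whether 2 libraries of a group came from different mice. Nor did they say in which cells of the mouse it was removed, so effects that arose before and during the culture cannot be told apart.

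In ATAC-seq a transposase inserts adapters where DNA is not covered by nucleosomes, so a pile of inserted ends, called as a peak, marks a promoter, enhancer or other open site. Lamin A is a filament protein of the nuclear lamina, which lies under the nuclear envelope and holds much inactive chromatin at the nuclear edge. Tbx5 encodes a T-box transcription factor known for heart and forelimb development and is not known as a macrophage gene. Mfng encodes Manic fringe, a Golgi glycosyltransferase that extends sugars on Notch receptors and so alters their response to ligands. Pik3r2 encodes a regulatory subunit of class I PI3 kinase, the lipid kinase upstream of Akt. Babam2 encodes an adaptor of the BRISC and BRCA1-A deubiquitinase complexes, which act on interferon receptors and at DNA breaks. Car2 encodes the cytosolic carbonic anhydrase, which osteoclasts, relatives of macrophages, use to produce acid. Aopep encodes an aminopeptidase of the M1 family.

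The lists held 53942 to 59750 peaks in the WT libraries and 44504 to 49661 in the KO libraries, so that the 2 ranges did not overlap. They covered 23.2 to 24.96 Mb in WT and 17.9 to 20.1 Mb in KO. The lists give no read counts, so sequencing depth is unknown, and its part in the genotype differences below was not tested. Between 78.4% and 82.3% of regions were shared within a group, and between 58.7% and 75.5% across groups. All 10 macrophage marker genes had a peak within 1 kb of a gene end in every library. Markers of other cells had fewer: 0 to 1 of 5 for B cells, 1 of 6 for T and NK cells, 2 of 6 for neutrophils, 0 to 1 of 4 for erythroid cells and 2 to 3 of 6 for stromal and endothelial cells.

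Promoters could be read for 3 of the 6 genes, Babam2, Aopep and Pik3r2, and for Gm3336, the 1 gene whose listed promoter overlapped a region that differed between genotypes. They are shown because the first 3 were open in all 8 libraries while that of Gm3336 was called in 3 WT libraries and no KO library. Each runs from 250 bases before to 50 bases after the start of the gene, from RefSeq on GRCm38.p6 (mm10), in the direction of transcription. Positions are chr5:31697800-31698099 (plus strand) for Babam2, chr13:62964643-62964942 (plus strand) for Aopep, chr8:70776663-70776962 (minus strand) for Pik3r2 and chr8:70718293-70718592 (plus strand) for Gm3336. Capitals mark matches to short motif words named after the sequences.
Babam2: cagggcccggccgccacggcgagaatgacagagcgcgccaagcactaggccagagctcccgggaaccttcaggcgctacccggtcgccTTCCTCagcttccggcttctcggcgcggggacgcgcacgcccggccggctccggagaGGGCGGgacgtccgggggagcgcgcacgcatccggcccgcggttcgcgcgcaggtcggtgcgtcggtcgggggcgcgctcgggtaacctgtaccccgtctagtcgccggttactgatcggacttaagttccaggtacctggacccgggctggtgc
Aopep: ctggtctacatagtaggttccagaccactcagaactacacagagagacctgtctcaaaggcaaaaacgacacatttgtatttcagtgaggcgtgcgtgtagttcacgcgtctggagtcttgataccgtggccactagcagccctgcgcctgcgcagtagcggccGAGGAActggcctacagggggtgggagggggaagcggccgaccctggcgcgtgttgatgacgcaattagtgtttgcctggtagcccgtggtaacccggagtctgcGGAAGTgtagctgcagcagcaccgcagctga
Pik3r2: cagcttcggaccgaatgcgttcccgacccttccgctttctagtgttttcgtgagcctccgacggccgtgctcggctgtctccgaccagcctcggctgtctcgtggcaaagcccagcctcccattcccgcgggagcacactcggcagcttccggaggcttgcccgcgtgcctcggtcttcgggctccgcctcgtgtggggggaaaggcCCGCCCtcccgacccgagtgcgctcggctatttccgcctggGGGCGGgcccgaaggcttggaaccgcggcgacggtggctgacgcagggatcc
Gm3336: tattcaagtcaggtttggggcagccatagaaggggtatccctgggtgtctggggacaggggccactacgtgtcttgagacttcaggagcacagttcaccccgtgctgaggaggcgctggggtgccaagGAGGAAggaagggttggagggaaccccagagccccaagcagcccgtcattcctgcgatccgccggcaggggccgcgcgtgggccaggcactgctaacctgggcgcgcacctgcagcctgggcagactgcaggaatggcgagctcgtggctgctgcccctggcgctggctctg

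The words searched on both strands were GAGGAA and GGAAGT for PU.1, the lineage factor of macrophages, TGANTCA for AP-1, TGACGTCA for CRE, TTGCNNAA for C/EBP, TGTGGT for RUNX, CACGTG for the E-box, GGGCGG for the GC box, TGGGAA for RBPJ and AGGTGTGA for T-box factors, with NF-kB and IRF words searched as well. The 2 PU.1 words can overlap each other. The Babam2 promoter held 1 GAGGAA on the minus strand and 1 GGGCGG on the plus strand. The Aopep promoter held 1 GAGGAA and 1 GGAAGT. In the Pik3r2 promoter GGGCGG occurred once on each strand, and in the Gm3336 promoter GAGGAA occurred once. No other word matched in these 4 windows. Of 32851 promoters of the same length, 28.3% held GAGGAA, 23.8% GGAAGT and 35.7% GGGCGG, so these are common words. GC content was 72.3% for Babam2, 69.3% for Pik3r2, 65.7% for Gm3336 and 58.0% for Aopep, against a median of 52.7% over all promoters. The numbers of CpG dinucleotides were 44, 36, 15 and 19 in the same order, against a median of 7. All 4 exceeded both medians.

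The 6 windows differed widely in how much open chromatin they held. Aopep had 62 regions, Babam2 29, Pik3r2 22, Mfng 16, Car2 12 and Tbx5 1. Of the 142, 76 lay inside one of the 6 genes, 46 (32.4%) were called in all 8 libraries and 29 (20.4%) in a single library. Over all 76751 regions these shares were 40.3% and 14.9%. Regions called in all 8 libraries numbered 17 for Aopep, 13 for Pik3r2, 10 for Babam2, 3 for Mfng, 3 for Car2 and 0 for Tbx5. Per 100 kb of window, Pik3r2 was the most densely covered, with 20.3 regions, and Tbx5 the least, with 0.530.

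**Figure D1:**
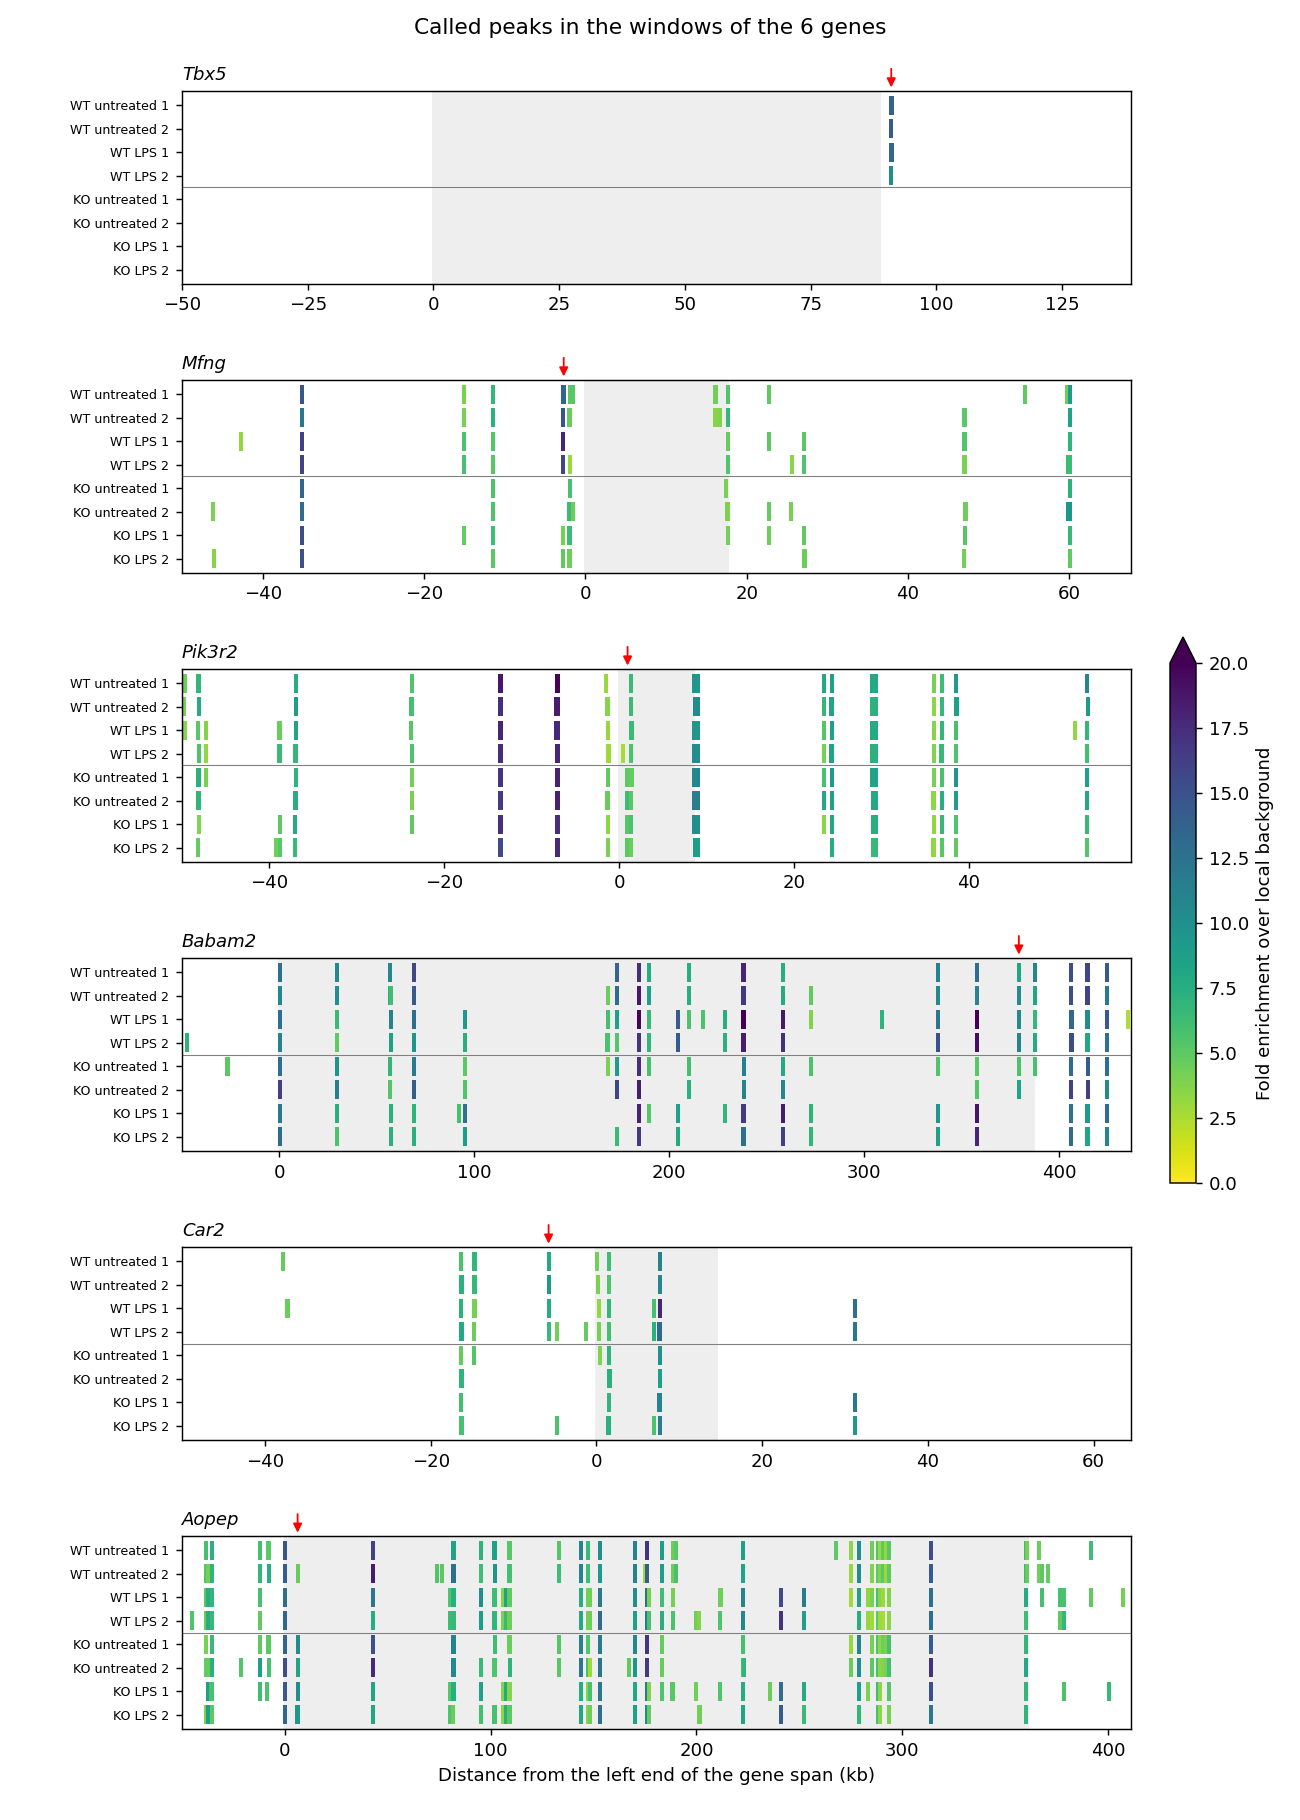
Every called peak in the 6 windows, by library (rows) and distance in kb from the left end of the gene span (horizontal axis), coloured by the authors' fold enrichment. Grey bands are the gene spans and red arrows mark the lead region of each gene. The Tbx5 window is empty but for 1 region in the 4 WT libraries, and most rows of the other windows share their strong peaks.

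A region was counted as lost when both WT libraries of a treatment held a peak in it and neither KO library did, and as gained in the opposite case. Untreated, 10 of the 142 regions were lost (7.04%, against 6.22% of all regions) and 2 were gained (1.41%, against 0.735%). After LPS 11 were lost (7.75%, against 6.94%) and 2 gained (1.41%, against 0.711%). In both treatments 2 were lost (1.41%, against 0.861%) and 1 gained (0.704%, against 0.0678%). The genes were chosen for such regions, so nothing is read from these shares against the background. In all, 22 regions differed between genotypes in at least 1 treatment (15.5%, against 13.7% of all regions), 19 of them lost and 3 gained. When every list was cut to its strongest 44504 peaks, 120 regions of the 6 genes were left and the losses fell to 3 untreated (2.50%, against 2.53% of all regions at that length) and 6 after LPS (5.00%, against 2.67%). The gains came to 3 (2.50%, against 2.26%) and 8 (6.67%, against 2.26%). Among peaks with −log10 p of at least 20, 8 of 111 regions were lost in both treatments (7.21%, against 0.889%). With 1 library left out, a single library could make a call for its group. Losses then reached 17 untreated without WT untreated 1 (12.1%, against 11.9% of all regions). After LPS they reached 24 without WT LPS 2 (17.4%, against 14.8%), and in both 5 without KO untreated 1 (3.55%, against 1.25%). Gains reached 7 untreated without KO untreated 1 (4.96%, against 2.86%). After LPS they reached 7 without KO LPS 2 (4.96%, against 2.79%), and in both 2 without WT untreated 2 (1.46%, against 0.0897%). An absent call means only that no peak passed the authors' threshold there. The lowest −log10 p in a list lay between 7.35 and 7.93.

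The strongest of these regions, by percentile within the lists, is called the lead region of its gene. For this, percentiles were averaged over the libraries that held a region, in the treatment or treatments where it differed. A percentile of 100 is the peak with the smallest p-value of its list, and since the lists differ in length, a difference in percentile between libraries is not itself a change. The fold enrichment is the authors' value for a peak over the local background of its own library. Ranks of the lead regions among all lost or gained regions are given below as a description. The genes were chosen on this same contrast, so nothing is read from these ranks.

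**Figure D2:**
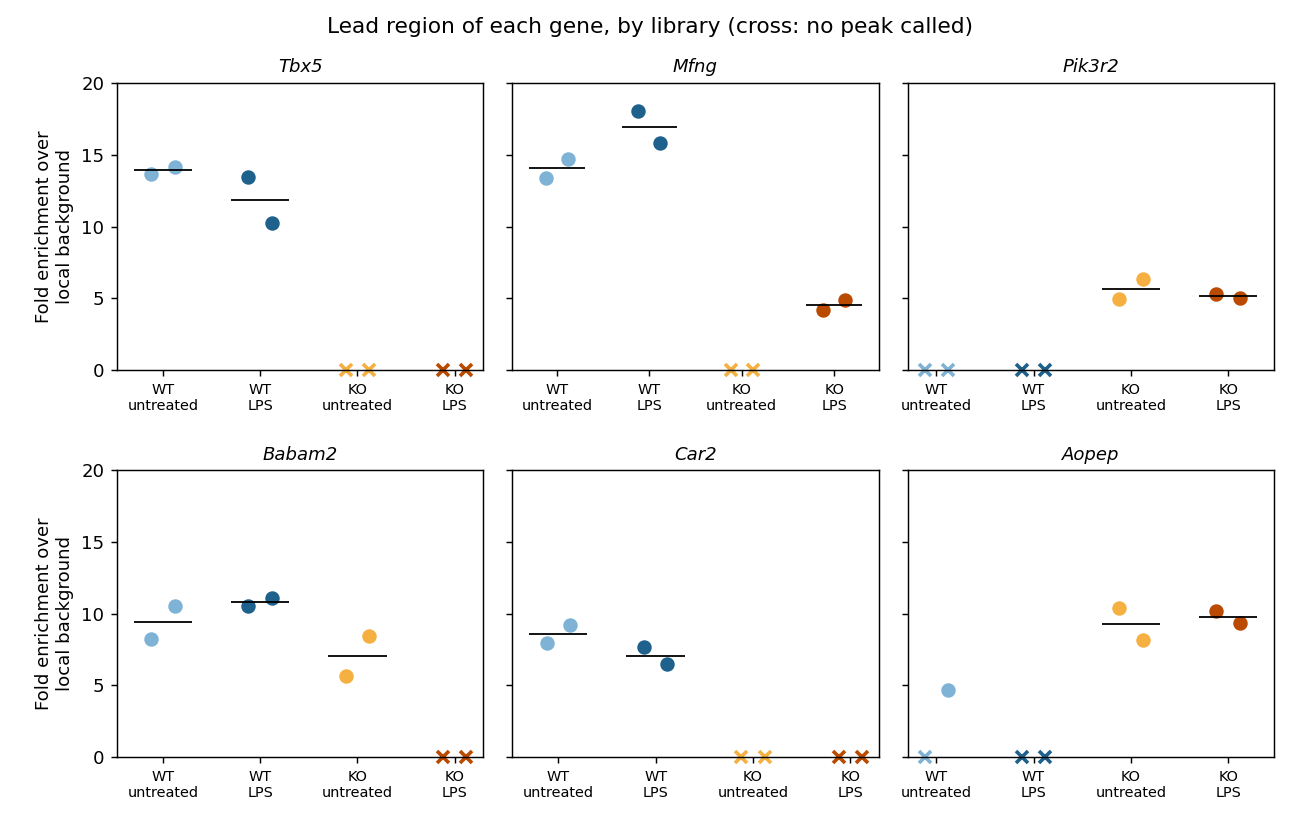
Fold enrichment (vertical axis, linear) of the lead region of each gene in the 8 libraries, by group (horizontal axis). Points are libraries, lines are means of the libraries with a peak where both had one, and crosses at 0 mark libraries without a called peak. Tbx5 and Car2 have points in WT alone, Pik3r2 in KO alone, and the others in 5 or 6 libraries.

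Tbx5 had the plainest pattern, a single region in a window of 189 kb. It lay at chr5:119887309-119887859 on mm10, 2.33 kb beyond the right end of the gene span and outside any protein-coding gene. Fold enrichment was 13.6 and 14.2 in untreated WT (13.9 ± 0.381, SD, n = 2) and 13.5 and 10.3 in WT after LPS (11.9 ± 2.27). No KO library had a peak in it. The WT pairs did not overlap, although 13.5 after LPS lay next to 13.6 in untreated cells, and the second LPS library was lowest. In KO the nearest peak was 200.7 to 200.8 kb away. Among the 661 regions of the series lost in both treatments it had the highest mean percentile, 64.6, where the median of that class was 20.1. Beyond the window, the nearest region on the left, 75.7 kb from the edge, was held by 2 WT libraries and no KO library, and the nearest on the right by all 8.

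Mfng carried the lead region with the highest percentiles of the 6. It lay at chr15:78752897-78753381, 2.68 kb beyond the left end of the gene span and outside any protein-coding gene. Fold enrichment was 13.4 and 14.7 in untreated WT (14.1 ± 0.931) and 18.0 and 15.8 in WT after LPS (16.9 ± 1.59). Untreated KO had no peak there, and KO after LPS had 4.21 and 4.91 (4.56 ± 0.496). All 4 WT values stood well above both KO values, and percentiles were 89.7 to 97.3 in WT against 19.0 and 30.1 in KO after LPS. It ranked first by percentile among the 4775 regions lost in untreated KO, and it was also among the regions that appeared with LPS in KO. The WT summits fell within 78753193 to 78753201, while the KO summits after LPS were at 78753050 and 78753144.

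A second Mfng region, at chr15:78753722-78754544, stood beside the lead region. It was called in 7 libraries, with fold enrichments of 5.23 and 4.55 in untreated WT, 3.09 in the second WT library after LPS, 5.86 and 6.48 in untreated KO, and 6.38 and 4.45 in KO after LPS. The untreated KO values were thus no lower than those of WT 365 to 386 bp from where the strong WT peak was missing. The region over the right end of the gene, at chr15:78773230-78773770, was also called in 7 libraries, at 3.98 to 6.72, with the highest values in untreated WT and none in the second KO library after LPS. Further losses in untreated KO were weak: chr15:78740705-78741021, at 4.01 and 4.17 in untreated WT, and chr15:78771748-78772378 inside the gene, at 4.36 and 3.61.

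Car2 had a lead region of moderate strength that was also called in every WT and no KO library. It lay at chr3:14880342-14880699, between Car3, a muscle carbonic anhydrase whose end is 8.12 kb away, and Car2, whose left end is 5.77 kb away. Fold enrichment was 7.96 and 9.18 in untreated WT (8.57 ± 0.866) and 7.65 and 6.52 in WT after LPS (7.08 ± 0.798). The 2 pairs did not overlap, with the LPS libraries lower. In KO the nearest peak was 5.87 to 6.99 kb away, except in the second LPS library, where it was 0.696 kb away. The region ranked 13 among the 661 lost in both treatments, by its mean percentile of 42.1.

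Another 2 Car2 regions were lost after LPS. The one inside Car3, at chr3:14871367-14871713, had fold enrichments of 6.82 and 6.61 in untreated WT, 4.15 and 4.47 in WT after LPS and 5.44 in the first untreated KO library. The one at the left end of Car2 itself, at chr3:14886219-14886859, was among the weakest peaks of every list that held it, with 4.23, 3.93, 3.36 and 4.15 in WT and 3.84 in the first untreated KO library. Inside Car2, chr3:14893698-14894088 was called in all 8 libraries. Its fold enrichment was 11.2 and 10.7 in untreated WT, 17.8 and 13.2 in WT after LPS, 9.79 and 8.57 in untreated KO, and 11.2 and 11.6 in KO after LPS. Within each genotype both LPS values lay above both untreated ones, and in each treatment both KO values lay below both WT values.

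Babam2 lost its lead region only after LPS. It lay inside the gene at chr5:32077092-32077587, 7.55 kb from the gene end opposite the promoter. Fold enrichment was 8.26 and 10.5 in untreated WT (9.40 ± 1.61), 10.6 and 11.1 in WT after LPS (10.8 ± 0.365), and 5.66 and 8.43 in untreated KO (7.05 ± 1.96). KO after LPS had no peak there, and its nearest was 21.0 kb away. The untreated WT and KO values overlapped, since 8.43 in KO exceeded 8.26 in WT. It ranked second by percentile among the 5327 regions lost after LPS.

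Weaker Babam2 regions differed in both directions. After LPS, chr5:31866180-31866578 was lost (5.96 and 5.73 in WT), and so was chr5:32085611-32086013, 0.820 kb beyond the gene end opposite the promoter (6.57 and 7.80 in WT). The first also had 4.45 in 1 untreated WT library and 4.11 in 1 untreated KO library. The second also had 10.9 and 8.26 in untreated WT and 5.82 in 1 untreated KO library. The 1 gain, at chr5:31792770-31793289 inside the gene, was a region that every LPS library held. Its fold enrichment was 5.05 and 5.51 in untreated KO, 9.18 and 7.35 in WT after LPS and 12.5 and 8.92 in KO after LPS, and the nearest peaks of untreated WT were 25274 and 25309 bp away. In untreated KO it was therefore called at a lower level than in any LPS library.

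Pik3r2 was the 1 gene with a region present in each of the 4 KO libraries and absent from WT. It lay inside the gene at chr8:70768864-70769303, 0.960 kb from the end opposite the promoter. Fold enrichment was 4.97 and 6.33 in untreated KO (5.65 ± 0.958) and 5.28 and 5.05 in KO after LPS (5.17 ± 0.162). It ranked 4 by percentile among the 52 regions gained in both treatments. In WT the nearest peak was 98 to 100 bp away, in the region chr8:70769401-70769775, which all 8 libraries held. The fold enrichment of that neighbour was 6.43, 6.45, 6.43 and 5.68 in WT and 4.84, 5.16, 5.76 and 4.60 in KO. WT was thus mostly higher in the neighbour, with only the second WT library after LPS below a KO value. When each peak was replaced by 250 bp on either side of its summit, both gained calls of Pik3r2 were absent. Such windows meet for summits at 70769136 in untreated KO and 70769597 in the neighbour, so both regions were joined. This setting therefore cannot tell whether the difference rests on where the edges of adjoining peaks were drawn.

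Upstream, the Pik3r2 window held 2 further losses, both weak. The region at the Gm3336 promoter shown above, chr8:70718319-70718635, had 4.49 and 4.09 in untreated WT and 3.59 in 1 WT library after LPS. Nearby, chr8:70720772-70721022 inside Gm3336 had 3.70 and 3.35 in WT after LPS and was also called in 1 untreated KO library. The promoter of Pik3r2 itself lay under chr8:70776537-70777475, with fold enrichments of 9.39 and 10.4 in untreated WT, 9.35 and 10.3 in WT after LPS, 10.7 and 11.6 in untreated KO and 10.1 and 8.97 in KO after LPS. The untreated KO pair lay above the untreated WT pair, while the LPS pairs overlapped.

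Aopep was the other gene whose lead region was on the KO side. The region lay inside the gene at chr13:62970888-62971274, 6.19 kb past its start. Fold enrichment was 10.4 and 8.20 in untreated KO (9.30 ± 1.56) and 10.2 and 9.34 in KO after LPS (9.75 ± 0.585). Of the WT libraries only the second untreated one had a peak, at 4.68, under every KO value. For that reason it counted as gained after LPS and not in untreated cells. It ranked second among the 546 regions gained after LPS, and its summits in 5 libraries lay within 38 bp. In the 3 WT libraries without the region the nearest peak, 5.77 to 5.79 kb away, was that of the Aopep promoter, which was called in all 8 libraries at 12.8 to 15.2.

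The other 7 Aopep regions that differed were losses, all with fold enrichments under 6. Untreated KO lacked chr13:63153110-63153658, chr13:63154588-63155015, chr13:63325481-63325791 and chr13:63331442-63331705, which untreated WT held at 4.17 to 5.82. Of these chr13:63325481-63325791, 0.439 kb inside the end of Aopep opposite its promoter, and chr13:63331442-63331705 also lie in Fancc, a Fanconi anaemia DNA repair gene. KO after LPS lacked chr13:63250077-63250435, chr13:63255419-63255997 and chr13:63341526-63341860, which WT after LPS held at 2.66 to 5.85. The first 2 of these were called in both untreated KO libraries. Aopep also hosts Mir23b, Mir27b, Mir3074-1 and Mir24-1, microRNA genes whose nearest region, 21.2 to 21.95 kb away, was held by all 8 libraries.

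The position and width of the 22 regions are set beside those of all 142, without a test. Inside one of the 6 genes lay 12 of the 22, beside 76 of all 142. Within 1 kb of a member gene's end lay 4, beside 10 of 142, and within 1 kb of any protein-coding gene end 6, beside 18 of 142. On a listed promoter lay 1 of the 22, beside 9 of 142 and 7 of the 46 regions called in all 8 libraries. The median width was 401 bp for the 22, 399.5 bp for the 142 and 485.5 bp for the 46. Percentiles were averaged over the libraries that held a region, in the treatment or treatments where it differed. By this mean 15 of the 22 were under 30 and 5 were at 50 or more. Those 5 were the lead regions of Tbx5, Mfng, Pik3r2, Babam2 and Aopep. Over all libraries that held them, in either treatment, the Babam2 and Aopep lead regions averaged 45.2 and 46.5. In 4 of the 22 a library without the region still had a peak within 500 bp.

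At the edge of the windows the regions just inside were in part weak. The inside neighbours of the 12 window edges had fold enrichments of 2.41 to 14.2 and 2 were called in all 8 libraries. The Tbx5 lead region, which had the 14.2, was the inside neighbour of both edges of its window. It lay 141.0 kb from the left edge and 47.7 kb from the right. The 12 outside neighbours had 3.92 to 20.9 and 5 were called in all 8.

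For the 46 regions present in every library, the percentiles of the 2 libraries of a group were averaged. WT lists were longer than KO lists, and a percentile depends on how many other peaks a list holds, so the values below describe places within lists and no change in accessibility is read from them. Over the 46 regions the median difference, KO minus WT, was −2.33 percentile points untreated and −4.40 after LPS. Over all 30960 regions called in all 8 libraries it was −3.95 and −4.78. KO was higher in 14 of the 46 untreated and 10 after LPS. The medians over the 46 regions together were thus on the same side as those of the series and no further from 0. Single windows varied more. Untreated, their medians ran from −0.545 for Aopep to −9.26 for Mfng, and after LPS from −1.46 for Aopep to −12.45 for Car2. Mfng and Car2 had only 3 such regions each.

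**Figure D3:**
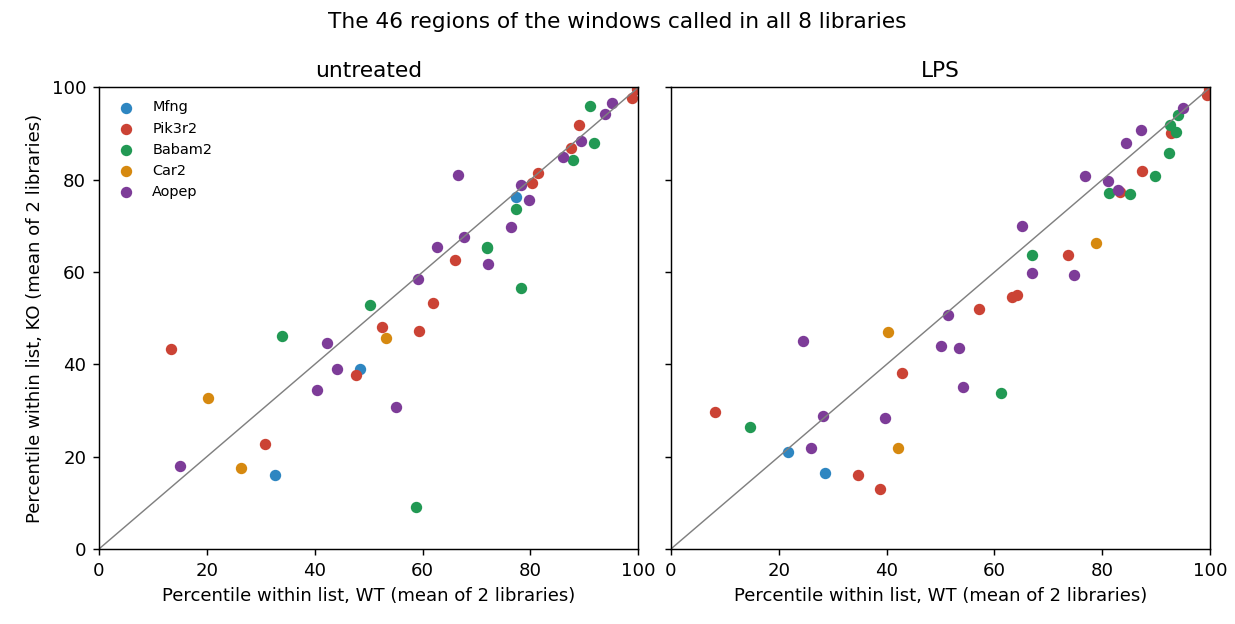
Percentile of p-value within the list for the 46 regions called in all 8 libraries, WT (horizontal) against KO (vertical), each the mean of 2 libraries, untreated on the left and after LPS on the right. Points are regions coloured by gene and the line marks equal percentiles. Most points lie near or under the line, and 1 Babam2 region untreated lies far under it, at 58.7 in WT and 9.02 in KO.

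The strongest region called in all 8 libraries in each window spanned a narrow range across groups in 4 of the 5 windows that had one. In the Pik3r2 window it lay at chr8:70760762-70761392, at the end of Mpv17l2, a mitochondrial protein gene, with fold enrichments of 17.3 to 19.8 over the 8 libraries. In the Babam2 window it lay on the promoter that Babam2 shares with Rbks, the ribokinase gene, at chr5:31697431-31698814, with 10.9 to 16.3. In the Aopep window it was chr13:63278674-63279258, inside the gene, with 12.1 to 17.2. In the Mfng window it was chr15:78720529-78720997, 1.96 kb from Elfn2, with 12.2 to 16.2. Percentiles averaged 99.7, 93.7, 91.5 and 84.3 in these 4, and the ranges of the 4 WT and the 4 KO libraries overlapped in each. The fifth was the Car2 region described above, with a mean percentile of 61.0.

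The points farthest from the line on each side were singled out after their values were seen. The highest on the KO side in both treatments was chr8:70766435-70767141, on the promoter of Ifi30, a lysosomal thiol reductase gene of the Pik3r2 window. Its fold enrichment was 3.10 and 3.62 in untreated WT, 4.90 and 4.61 in untreated KO, 3.06 and 2.96 in WT after LPS and 3.5 and 3.94 in KO after LPS. Both KO values exceeded both WT values in each treatment, and the mean percentiles of KO minus WT differed by 30.01 points untreated and 21.6 after LPS. The farthest on the WT side, in untreated cells, was a region inside Babam2, chr5:32055588-32056066. Fold enrichment was 12.9 and 11.0 in untreated WT (percentiles of 61.0 and 56.4) and 5.20 and 5.36 in untreated KO (8.84 and 9.19). After LPS it was 21.7 and 19.3 in WT and 18.9 and 17.9 in KO. Both genotypes were higher after LPS, and the gap seen in untreated cells was smaller there. It lay 21.0 kb from the Babam2 lead region and was the nearest peak to it in KO after LPS.

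The response to LPS within a genotype was not used to choose the genes, but the counts below are not independent of that choice. The Mfng lead region is among those that appeared with LPS in KO, and the Babam2 lead region among those that disappeared there. In WT, 19 of the 142 regions were called in both LPS libraries and neither untreated one (13.4%, against 10.1% of all regions), and 8 the other way (5.63%, against 6.02%). In KO 12 appeared with LPS (8.45%, against 8.03%) and 9 disappeared (6.34%, against 5.56%). Of these, 10 appeared (7.04%, against 4.85%) and 4 disappeared (2.82%, against 1.79%) in both genotypes. With LPS 34 regions differed in at least 1 genotype (23.9%, against 23.1%), and 11 of them also differed between genotypes (7.75%, against 8.68%). Neither difference was found in 97 of the 142 (68.3%, against 71.95%). With 1 library left out, the regions that disappeared in WT numbered up to 14, without WT untreated 1 (10.0%, against 10.3% of all regions). In KO they numbered up to 15, without KO untreated 2 (10.7%, against 8.20%). Those that appeared in KO numbered up to 23, without KO LPS 2 (16.3%, against 13.0%). With no library left out, among regions that appeared or disappeared, the widest gap from the whole series was that of those that appeared in WT. Of those 19, 11 lay in the Aopep window, which holds 62 of the 142 regions.

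**Figure D4:**
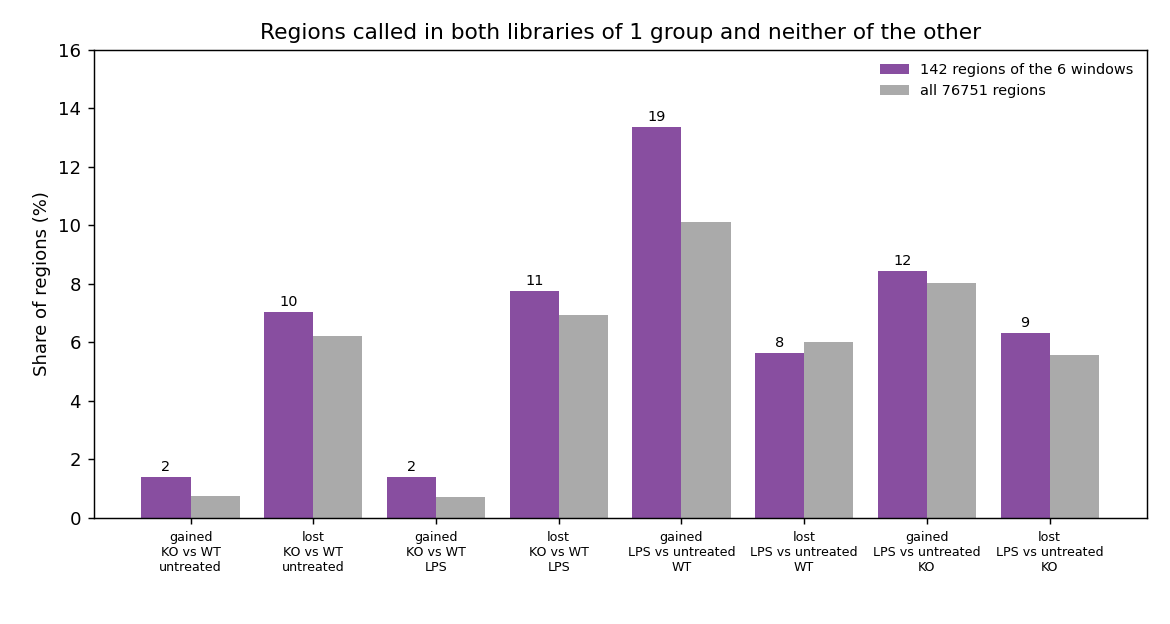
Share of regions (vertical axis, %) gained or lost in 8 comparisons (horizontal axis), a call in each library of 1 group against none in the opposite one, in the 6 windows (purple, with the number of regions above) and over all 76751 regions (grey). Losses outnumber gains between genotypes in both sets, and the tallest bars are gains with LPS in WT, 13.4% in the windows and 10.1% overall.

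The strongest regions that appeared with LPS were the same in WT and KO in all 5 windows that had any. Inside Aopep, chr13:63205690-63206308 had fold enrichments of 15.5 and 17.1 in WT and 13.0 and 14.3 in KO, with summits within 6 bp in the 4 libraries. Inside Babam2, chr5:31902148-31902552 had 14.3 and 14.2 in WT and 8.72 and 7.96 in KO, so the KO pair lay lower. Near Car2, chr3:14917260-14917673, 16.7 kb beyond the right end of the gene, had 12.5 and 11.9 in WT and 11.9 and 9.42 in KO. The other windows had weaker ones. Inside Card10, an adaptor of NF-kB signalling in the Mfng window, chr15:78782841-78783180 had 5.26 and 5.52 in WT and 4.85 and 4.58 in KO. Inside Pde4c, a phosphodiesterase gene in the Pik3r2 window, chr8:70729146-70729517 had 4.56 and 6.49 in WT and 5.00 and 5.29 in KO.

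Of the regions that disappeared with LPS, those described here were the strongest in WT of their windows by percentile. Inside Babam2, chr5:31754653-31755028 had 10.7 and 7.50 in untreated WT and 6.73 and 5.36 in untreated KO. Inside Aopep, chr13:63256786-63257107 had 3.09 and 2.99 in untreated WT and 4.01 and 4.20 in untreated KO. Neither was called in any LPS library. Other Aopep regions that disappeared ranked lower by percentile but had higher fold enrichments, such as chr13:62956826-62957159, with 5.12 and 7.49 in untreated WT.

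The number of peaks in the windows was compared between treatments with an exact permutation test, two-sided, that shuffled treatment within each genotype. WT libraries held 89.0 ± 4.24 peaks untreated and 102.5 ± 3.54 after LPS, and KO libraries 77.0 ± 1.41 and 81.0 ± 7.07 (SD, n = 2 each). The mean difference, LPS minus untreated, was 8.75 peaks, with a permutation p of 0.167 and an adjusted p of 0.167 over 2 tests. With lists of equal length it was 4.50 peaks (permutation p = 0.111), and with −log10 p of at least 20 it was 9 peaks (permutation p = 0.0556). Covered length differed by 2379.5 bp, 35789 against 33410 bp, with a permutation p of 0.167 as well, and by 1400.75 bp with lists of equal length (permutation p = 0.111). Neither passed, and the smallest p that the 36 arrangements allow is 0.0556. The pairs overlapped in KO, where the LPS libraries spread most, and not in WT. Since the labels do not name separate animals, p measures only the spread between these libraries.

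Other members of the pathways of the 6 genes were looked up in 6 lists with 120 genes, of which 113 had a region within 50 kb. A gene was counted when at least 1 of its regions was lost or gained, so genes with many regions are counted more readily. Over all 17860 protein-coding genes with a region, the median number of regions was 9. In the lists 51 genes (45.1%) had a region lost untreated, against 41.3% of all genes, and 61 (54.0%) after LPS, against 44.6%. Gains touched 8 genes (7.08%) untreated, against 5.32%, and 4 genes (3.54%) after LPS, against 5.52%. In both treatments 13 (11.5%) had a region lost, against 7.69% of all genes, and 0 a region gained, against 0.538%. The 13 include Car3, through the Car2 lead region, a region of the kind the 6 genes were chosen for. Car3 also counts among the 51 and the 61, so nothing is read from these shares against all genes.

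The Notch list, which holds the receptors, ligands and enzymes that act with fringe proteins, had a median of 12.5 regions per gene. Of its 32 genes 13 had a region lost untreated (40.6%) and 22 after LPS (68.8%), while 3 (9.38%) and 1 (3.12%) had a gain. The shares over all genes are those just given, 41.3% and 44.6% for losses, at a median of 9 regions per gene. In both treatments 5 lost a region: the receptor gene Notch4, the ligand gene Jag2, the target gene Hes1 and the ubiquitin ligase genes Itch and Dtx1. These regions had fold enrichments from 3.15 to 8.11 and mean percentiles of 9.26 to 30.3 in the WT libraries. The Mfng lead region averaged 70.7 over the 6 libraries that held it, the KO libraries after LPS among them. Mfng was chosen for such a region, so nothing is read from this order.

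In the PI3 kinase list, with a median of 14 regions per gene, 14 of 27 genes had a region lost untreated (51.9%, against 41.3% of all genes) and 15 after LPS (55.6%, against 44.6%), with 3 gains in each (11.1%, against 5.32% and 5.52%). In both treatments Akt2, a kinase downstream of PI3 kinase, lost a region with fold enrichments of 5.51 to 6.79, and Gab2, a docking adaptor, one of 4.74 to 6.89. None of the 27 had a region gained in both treatments, as Pik3r2 had.

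Of the 14 genes that work with Babam2, 6 had a region lost untreated (42.9%, against 41.3% of all genes) and 6 after LPS (against 44.6%). Uimc1, which brings the BRCA1-A complex to ubiquitin chains, and Shmt2, a metabolic enzyme that binds BRISC, had losses in both treatments, with fold enrichments of 3.74 to 6.25. Of 15 carbonic anhydrase genes, 14 had a region, 7 a loss untreated (50%, against 41.3%) and 8 after LPS (57.1%, against 44.6%). Car4, a membrane-bound form, lost a region of 5.86 to 7.37 in both. Car3, which counts among both the 7 and the 8, shares the Car2 lead region. Of 10 M1 aminopeptidase genes, 9 had a region, 4 a loss untreated (44.4%, against 41.3%) and 3 after LPS (33.3%, against 44.6%), with Anpep losing one of 3.07 to 4.98 in both. Of 22 T-box and cardiac genes 17 had a region, 7 a loss in each treatment (41.2%, against 41.3% and 44.6%), and Tbx6 one of 2.97 to 4.27 in both. By mean percentile each of these regions, apart from the one Car3 shares, was below the lead region of the gene it was listed with. The 6 genes were chosen for regions of this kind and the lead is the strongest of them, so nothing is read from this order.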

How the data were processed

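Reads of 8 ATAC-seq libraries were aligned with BWA 0.7.12 to mm10 and peaks called with MACS2, per the submitters' processing notes. Settings and the filter applied to the lists were not given in the sources used here. The authors deposited 1 narrowPeak list per library, not pooled, with peak positions (other), a whole-number score (10 times −log10 p), a fold enrichment (ratio), and −log10 p and −log10 q values. Groups follow the titles and treatment labels, although the source name of each LPS library also says untreated. Peaks sharing 1 bp or more, over all lists, were merged, and calls were compared by group with pandas 2.3.3 on Python 3.11.15, after checks on simulated data. Percentiles rank peaks by p within a list. Gene spans and promoters came from RefSeq on GRCm38.p6, all 6 genes matched, and spans without exons were used. The genes, gene lists and motifs were chosen with earlier results of these data known. Regions named were those that differed between genotypes, the strongest shared or LPS-dependent one per gene, and those at gene ends and window edges. Alternatives were lists of equal length, −log10 p of at least 20, summit windows, 20 kb flanks, ranks by fold, leaving out each library and a replicate block.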

Additional observations from a re-analysis of the deposited data

How the results depend on the processing

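Peak lists hold calls and not reads, so a weak site just under the threshold and a closed site look alike, and genotype differences were not tested, since the genes were chosen on them. Lists of equal length, −log10 p of at least 20 and leaving out a library only remove peaks. No KO against WT call of the 22 regions could therefore reverse there. With −log10 p of at least 20 only 4 of 12 untreated and 7 of 13 LPS calls were kept, and with lists of equal length 5 and 7. With summit windows 11 of 12 untreated and 12 of 13 LPS calls were kept, and none reversed. Flanks of 20 kb moved no count by over 1.5 times. With lists of equal length, losses were 3 untreated and 6 after LPS and gains after LPS 8, with the shares given above. Gains in both treatments were 2 (1.67%, against 0.266% of all regions). With −log10 p of at least 20, gains after LPS were 5 (4.50%, against 0.590% of all regions) and gains in both treatments 2 (1.80%, against 0.0805%). Losses in both treatments were 8 (7.21%, against 0.889%) and regions that disappeared with LPS in KO 5 (4.50%, against 6.69%). With summit windows, gains were 1 untreated (0.735%, against 0.819%), 1 after LPS (0.735%, against 0.808%) and 0 in both (against 0.0851%), since the Pik3r2 call was absent. Ranked by fold, the lead percentiles were 83.0 for Tbx5 (64.6 by p), 24.97 for Pik3r2 (54.96) and 52.9 for Car2 (42.1).

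Leaving out 1 library lets a group of 1 library make a call, which by construction raises the counts. The shares over all regions rose too. For losses untreated they went from 6.22% to 11.9% without WT untreated 1, and for losses after LPS from 6.94% to 14.8% without WT LPS 2. Gains ranged from 2 to 7 untreated (7 and 4 without KO untreated 1 or 2), from 2 to 7 after LPS (4 and 7 without KO LPS 1 or 2) and from 1 to 2 in both (2 without WT untreated 2). Losses ranged from 10 to 17 untreated (17 without WT untreated 1), from 11 to 24 after LPS (17, 24 and 23 without WT LPS 1, WT LPS 2 or KO LPS 1) and from 2 to 5 in both (4, 5 and 4 without WT LPS 2, KO untreated 1 or KO LPS 1). Regions that appeared with LPS ranged from 19 to 27 in WT and from 12 to 23 in KO (23 without KO LPS 2). Those that disappeared ranged from 8 to 14 in WT (14 without WT untreated 1) and from 9 to 15 in KO (15 and 14 without KO untreated 2 or KO LPS 1). The LPS difference ranged from 6.25 to 11.25 peaks (permutation p of 0.0556 to 0.278) and from 1380.75 to 3378.25 bp (0.0556 to 0.333). With a replicate block the differences stayed 8.75 peaks and 2379.5 bp, with an exact permutation p of 0.25 for each, where 0.125 is the smallest possible. Same-numbered libraries did not deviate together, with correlations across regions of −0.00693 to 0.00744 over 6 pairs of groups. Since the lists hold no read counts, this cannot exclude that same-numbered libraries shared an animal or a preparation. As a share of each list, counted per 1000 peaks, the LPS difference was 0.0878 (permutation p = 0.111).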
